A study of Mus musculus with 18 samples.

Results

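The miRNAs miR-143, miR-145a and miR-145b were followed in BV-2 cells, an immortalized mouse microglial line, across 18 samples of small RNA. The members were all listed rows whose names match miR-143, miR-145a or miR-145b, either as a hairpin (written mir) or as a mature miRNA (written miR), and 8 of the 2134 listed features matched. These were mmu-miR-145a-3p, mmu-miR-145a-5p, mmu-mir-145a, mmu-miR-143-3p, mmu-miR-143-5p, mmu-mir-143, mmu-miR-145b and mmu-mir-145b, written without the species prefix from here on. The group was chosen by the measured level of miR-145a-3p with LPS against control. The paper also lists miR-145a-3p as higher than control with CBD+LPS and with THC+LPS, so those levels were known beforehand too. A like change in several settings with LPS is therefore no independent support. Levels and changes with LPS are described here without a test. The samples formed 6 groups of 3: untreated control cells, LPS (100 ng/ml for 4 h), CBD (10 μM for 6 h), THC (10 μM for 6 h), and CBD or THC added 2 h before LPS (CBD+LPS and THC+LPS). Both cannabinoids, cannabidiol (CBD) and tetrahydrocannabinol (THC), come from Cannabis, and lipopolysaccharide (LPS), from the outer membrane of Gram-negative bacteria, activates microglia through Toll-like receptor 4. All cells were of this single line, grown in medium with fetal calf serum, and nothing in the labels says that the 3 samples of a group came from separate cultures, so that their spread may be technical.

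A miRNA gene is transcribed as a long precursor from which a hairpin is cut, and Dicer then releases a duplex of its 5p and 3p arms, of which usually a single arm is loaded into Argonaute and guides it to target mRNAs through its seed. miR-143 and miR-145 are neighbours in the genome and are known as the abundant miRNAs of smooth muscle and of fibroblast-like cells, where they act on the contractile state of the muscle cell. In those cells miR-145-5p is the arm usually described as the guide, and the 3p arm was formerly named with a star as the passenger strand. miR-145b is a separate mouse locus named for its likeness to miR-145a.

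In GENCODE M21 on GRCm38, Mir145a lies on the minus strand of chromosome 18 from 61647825 to 61647894, and Mir143 on the same strand from 61649196 to 61649258, with 1301 bases between them. Neither hairpin lies inside another annotated gene. The nearest ones are the long non-coding RNA genes Carmn, on the same strand with 366 bases between it and Mir143, and Bvht, on the opposite strand with 352 bases between it and Mir145a. Mir145b lies on the minus strand of chromosome 18 from 69022199 to 69022273, also in no other annotated gene, and at a distance from the pair.

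Levels are given as the deposited counts per 1000000 reads after TMM scaling (CPM), from which whole reads could be recovered. A sample held 442718 to 1057147 recovered reads, and 3 reads, the smallest level taken as measurable, corresponded to between 2.98 and 6.38 CPM. This floor reflects counting error only, because PCR copies of a molecule are read as separate reads. In every group the sample numbered 22 to 27 was less like the other pair than these were like each other, with Spearman correlations across features of 0.789 to 0.896 against 0.881 to 0.913. The labels name no batch, and results are therefore also given for samples 28 to 39. Myeloid miRNAs covered a wide range of levels. miR-142-5p stood between 7254 and 12346 CPM, miR-223-3p between 48.5 and 178 CPM, and miR-150-5p at most at 12.6 CPM. The neuronal miR-124-3p had 4 reads in all samples together, and the 4 rows of miR-124 summed to at most 9.32 CPM in a sample.

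Of the 8 members, miR-145a-3p was the abundant one in BV-2 cells. It had 18661 reads over the 18 samples, between 462 and 1679 per sample, and stood at rank 77 of 1279 mature miRNAs in control cells and at rank 66 with LPS. Its other arm, miR-145a-5p, had 3 reads in all. The hairpin mir-145a had 6 reads, mir-143 had 16, miR-143-5p had 3, miR-145b had 2 and mir-145b had 40. miR-143-3p, with 269 reads, was the only other member with reads in all 18 samples. The filter used for testing, at least 10 reads over all samples, was passed by 4 members, namely miR-145a-3p, miR-143-3p, mir-143 and mir-145b.

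**Figure D1:**
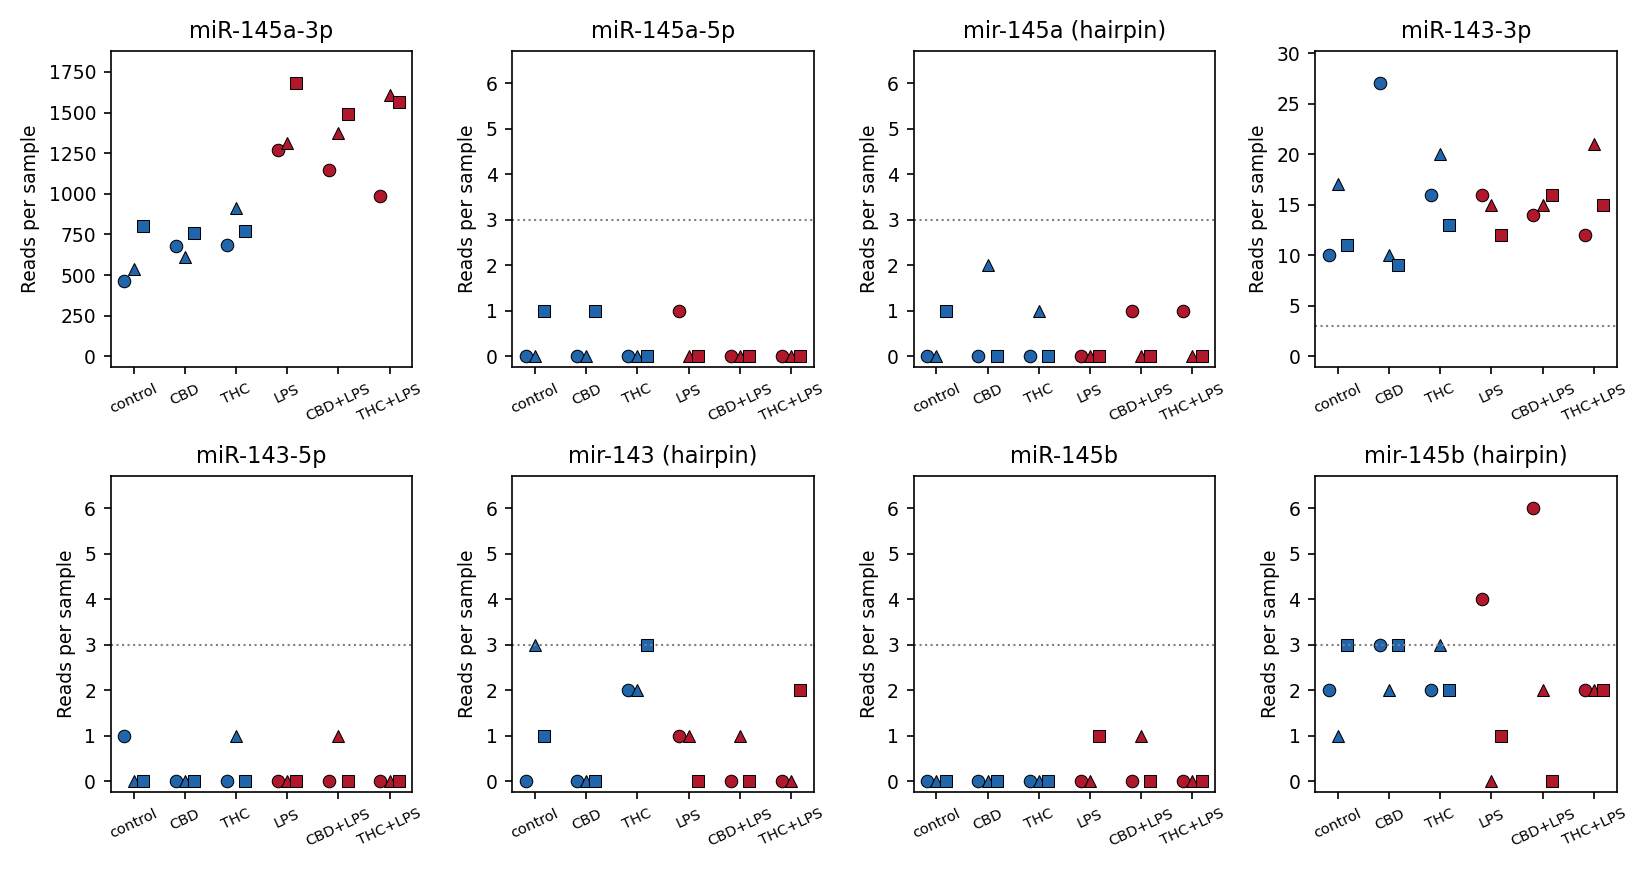
Reads per sample (y axis, a separate scale in each panel) of the 8 members by treatment (x axis), with blue for samples without LPS and red for samples with LPS. Circles are samples 22 to 27, triangles 28 to 33 and squares 34 to 39, and the dotted line marks 3 reads. miR-145a-3p reaches 1679 reads in a sample, while miR-145a-5p and miR-145b never exceed 1.

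In control cells miR-145a-3p stood at 983, 919.9 and 937 CPM in samples 22, 28 and 34. With LPS it stood at 1657, 1741 and 1729 CPM in samples 23, 29 and 35. All 3 LPS samples lay far above all 3 control samples, and within each group the samples were close to each other. The means were 946 ± 32.4 and 1709 ± 45.6 CPM (SD, n = 3), which is 1.81-fold, and the difference on the scale of log2(CPM + 1) was 0.85 (standard error 0.19). The coefficient of variation was 3.42% in control and 2.67% with LPS, against 4.19% and 2.67% from the read numbers alone. It was above the counting value in the other groups, at 10.8% with CBD (counting 3.84%), 23.5% with THC (3.59%), 18.2% with CBD+LPS (2.75%) and 4.32% with THC+LPS (2.75%). Over all 1363 features with at least 10 reads, 5.58% had every LPS sample above every control sample. The median difference of all tested features was 0.11. Of the 280 features with at least 1000 reads, 23 had a larger log2 difference with LPS than miR-145a-3p.

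The same direction was seen in cells that had received a cannabinoid. In the CBD samples miR-145a-3p stood at 972, 1149 and 1201 CPM, and in the CBD+LPS samples at 1295, 1828 and 1791 CPM. The groups did not overlap, but the gap between the highest CBD sample and the lowest CBD+LPS sample was narrow, at 93.4 CPM. The log2 difference was 0.55 (standard error 0.19), and 5.43% of the tested features had every CBD+LPS sample above every CBD sample. In the THC samples it stood at 680.2, 1079 and 1039 CPM, and in the THC+LPS samples at 1750.2, 1903 and 1796 CPM. Here the groups were wide apart, with a log2 difference of 0.99 (standard error 0.19), and 5.06% of the features had every THC+LPS sample higher. THC sample 25 and CBD+LPS sample 26 were the lowest of their groups. Of the 280 features with at least 1000 reads, 54 had a larger difference than miR-145a-3p between CBD+LPS and CBD, and 7 between THC+LPS and THC. Without THC sample 25 the difference between THC+LPS and THC was 0.78.

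**Figure D2:**
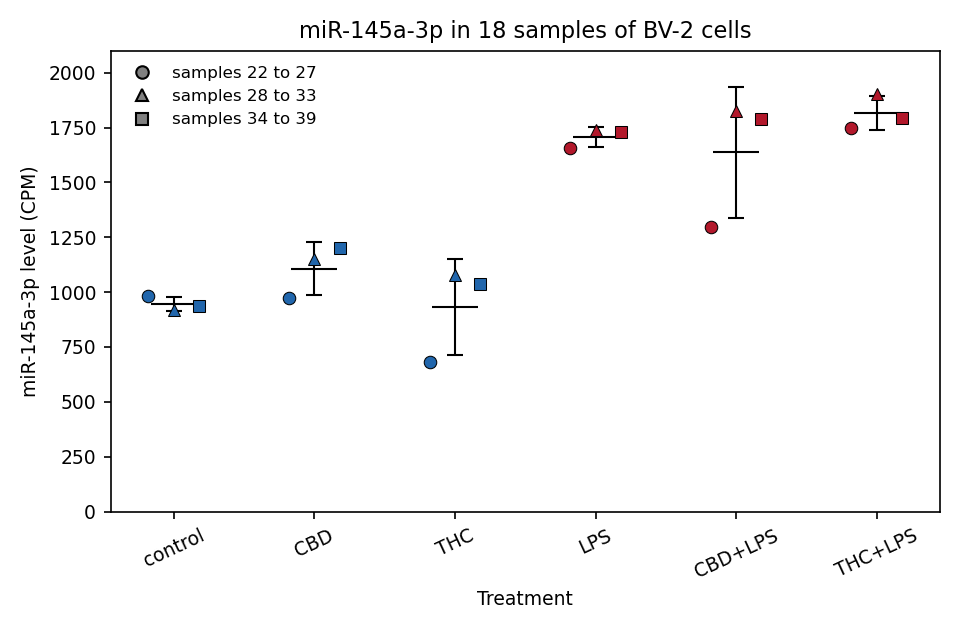
Level of miR-145a-3p in CPM (y axis, from 0) in each sample by treatment (x axis), with blue for samples without LPS and red for samples with LPS, and with the mean and SD of 3 samples in black. The 9 samples with LPS lie between 1295 and 1903 CPM and the 9 without LPS between 680.2 and 1201 CPM.

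Taking the treatments together, the lowest of the 9 samples with LPS, at 1295 CPM, was above the highest of the 9 samples without, at 1201 CPM. Of the 1363 tested features 13, or 0.954%, showed this, and miR-145a-3p was one of them. The others were miR-146a-3p, mir-155 with both of its arms, mir-20a and miR-20a-3p, mir-21a with both of its arms, mir-221 and miR-221-5p, and mir-222. Of these, miR-155, miR-146a and miR-21 are known to be induced by Toll-like receptor signalling. Against control, 4.77% of features had every CBD+LPS sample higher and 4.99% every THC+LPS sample. The separation of miR-145a-3p held with the 3 other scalings tried, and the narrowest gap was that of the deposited scaling. With reads divided by library size alone, the lowest sample with LPS was at 1484 and the highest without at 1152 CPM.

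The change with LPS was present in each run of consecutive sample numbers. The ratio of the LPS to the control sample was 1.69 in samples 22 to 27, 1.89 in samples 28 to 33 and 1.85 in samples 34 to 39. For CBD+LPS over CBD it was 1.33, 1.59 and 1.49 in the same order. The ratio of THC+LPS to THC was 2.57, 1.76 and 1.73, so that the highest and the lowest of these 9 ratios both fell in samples 22 to 27. Fitted in samples 28 to 39 alone, the log2 difference between LPS and control was 0.90 (standard error 0.11).

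By their means, the 6 groups followed the order THC (933 ± 219.5 CPM), control, CBD (1108 ± 120.0 CPM), CBD+LPS (1638 ± 298 CPM), LPS and THC+LPS (1816 ± 78.5 CPM). THC overlapped control, control overlapped CBD, and CBD+LPS overlapped LPS. The THC+LPS samples all lay above the LPS samples, but only by 9.19 CPM at the nearest, which is less than the SD of either group, and 2.57% of the tested features had every THC+LPS sample higher. On the log2 scale miR-145a-3p differed from control by 0.22 with CBD and by -0.05 with THC, and from LPS by -0.08 with CBD+LPS and by 0.09 with THC+LPS, each with a standard error of 0.19. The difference between the LPS responses with and without CBD was -0.30 and that with and without THC 0.14, each with a standard error of 0.27.

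The 5p arm, which shares its hairpin with miR-145a-3p, could not be compared with LPS at this depth. miR-145a-5p had a single read in control sample 34, a single read in LPS sample 23, a single read in CBD sample 36 and none in the other 15 samples. Every group was therefore under the floor of 3 reads per sample, and no fold is given. Of the reads on both arms, 1 of 1805 was on the 5p arm in control cells (0.0554%, exact 95% interval 0.00140 to 0.308%) and 1 of 4262 with LPS (0.0235%, 0.000594 to 0.131%). In the THC, CBD+LPS and THC+LPS samples no read of the 5p arm was recovered, which allows a share of up to 0.127%, 0.0747% and 0.0721% when 3 reads are taken as the limit of a count of 0. The upper ends of the exact 95% intervals were 0.156%, 0.0918% and 0.0886%. Over all samples the share was 0.0161% (exact 95% interval 0.00331 to 0.0470%).

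This balance of the arms lay at the end of the range in these samples. Among the 115 miRNAs that had at least 1000 reads on both arms together, a limit chosen after the values were seen, the arm with fewer reads held a median of 5.03% of the reads. None of the others had a smaller share than miR-145a. The next in order were miR-141, with 0.0352% on its 5p arm, and miR-351, with 0.0455% on its 3p arm, and both shares are within the interval of miR-145a. More reads on the 3p than on the 5p arm were found for 54 of the 115. The members are counted as reads of each row, with no correction for length.

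**Figure D3:**
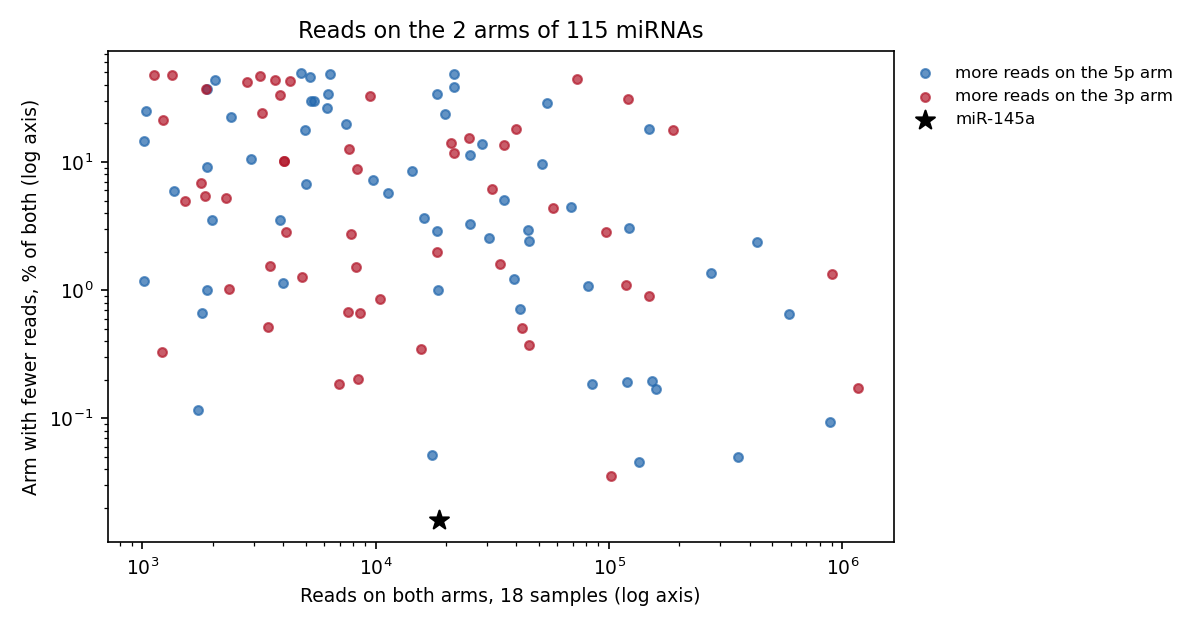
Share of reads on the arm with fewer reads, in % of both arms (y axis, log scale), against the reads on both arms over 18 samples (x axis, log scale) for 115 miRNAs, each a point coloured by the arm with more reads. miR-145a (star) has the lowest share, 0.0161%, at 18664 reads.

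The hairpin row mir-145a, which collects reads that were assigned to the precursor, was also near 0. It had 1 read in control sample 34, 2 in CBD sample 30 and 1 each in THC sample 31, CBD+LPS sample 26 and THC+LPS sample 27, and none with LPS alone. No change with LPS was detectable at this depth. For each 1000 reads on its arms, mir-145a had 0.321 reads on the hairpin row. The median of the 110 miRNAs with at least 1000 arm reads and a hairpin row of the same name was 28.9, and 2 of them had fewer than mir-145a.

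The neighbour miR-143 was present at a much lower read number and without the pattern of miR-145a-3p. In control samples 22, 28 and 34 miR-143-3p, the arm known as its guide, had 10, 17 and 11 reads, or 21.3, 29.1 and 12.8 CPM. With LPS it had 16, 15 and 12 reads, or 20.9, 19.9 and 12.4 CPM. The groups overlapped, with means of 21.1 ± 8.13 and 17.7 ± 4.67 CPM (SD, n = 3) and a log2 difference of -0.20 (standard error 0.40). With CBD it stood between 14.2 and 38.7 CPM and with CBD+LPS between 15.8 and 19.9 CPM. With THC the range was 15.9 to 23.6 CPM and with THC+LPS 17.2 to 24.8 CPM. The log2 differences were -0.25 between CBD+LPS and CBD and 0.15 between THC+LPS and THC, with the same standard error. Their signs differed, and with library size or the reference miRNAs as the scaling the value for THC turned negative (-0.02 and -0.19).

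The LPS response of miR-145a-3p was larger than that of miR-143-3p by 1.05 on the log2 scale (standard error 0.39). It was larger by 0.80 in the presence of CBD and by 0.84 in the presence of THC. This contrast contains the one by which the members were picked, and it was not tested. In single samples, miR-145a-3p had 31.6 to 73.1 times the reads of miR-143-3p in control and 79.2 to 139.9 times with LPS. The CBD samples, at 25.1 to 84.4 times, overlapped the CBD+LPS samples, at 82.0 to 93.3 times. The THC samples, at 42.75 to 59.2 times, lay below the THC+LPS samples, at 76.7 to 104.5 times. These ratios contain the change by which miR-145a-3p was picked. How often ratios of other features separate the groups in this way was not counted. At 9 to 27 reads per sample, the standard error of the miR-143-3p response spans values on both sides of 0.

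**Figure D4:**
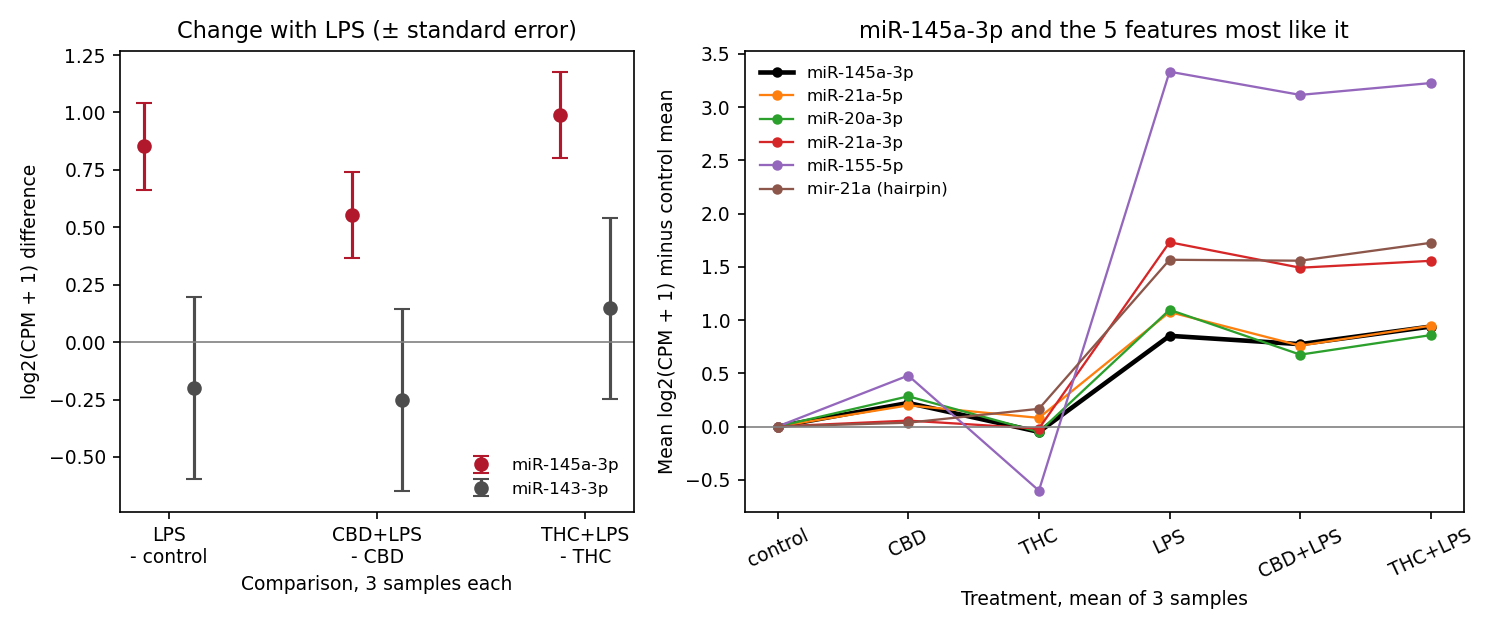
Left, difference in log2(CPM + 1) with LPS in each of 3 settings (x axis) for miR-145a-3p (red) and miR-143-3p (grey), with standard errors from the fit across all features. Right, mean log2(CPM + 1) of 3 samples minus the control mean (y axis) by treatment (x axis) for miR-145a-3p (black) and the 5 features with the most similar levels. miR-145a-3p differs by 0.85, 0.55 and 0.99 with LPS and miR-143-3p by -0.20, -0.25 and 0.15.

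The remaining rows of the group held few reads. The hairpin mir-143 had 0, 3 and 1 reads in control, 1, 1 and 0 with LPS, 2, 2 and 3 with THC, 0, 1 and 0 with CBD+LPS, 0, 0 and 2 with THC+LPS, and none in the CBD samples. No sample exceeded 3 reads, and no fold is given. miR-143-5p had 1 read each in control sample 22, THC sample 31 and CBD+LPS sample 32, so that 3 of 272 arm reads of miR-143 were on its 5p arm, with an exact 95% interval of 0.228 to 3.19%. Both miRNAs of the pair thus had more reads on the 3p than on the 5p arm. The hairpin mir-145b had 2, 1 and 3 reads in control and 4, 0 and 1 with LPS, and at most 6 in any sample. Its mature form miR-145b had 1 read in LPS sample 35 and 1 in CBD+LPS sample 32. The alignment allowed up to 10 mappings per read, and how reads with several mappings were counted is not given in the sources used here, so the arm and hairpin counts of miR-145a and miR-145b may depend on it.

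The effects of the cannabinoids were tested on the members that had not been picked for their response and that passed the filter, namely miR-143-3p, mir-143 and mir-145b. The 8 comparisons were each cannabinoid with control and, with LPS, with LPS alone, the cannabinoids with each other in both states, and the interaction of each with LPS. Of these 24 tests, 0 passed the threshold of 0.1 for the adjusted p from limma over 1363 features, and in 1 the unadjusted p was 0.05 or less, that of mir-143 between CBD and THC. On the recovered reads, edgeR's quasi-likelihood fit gave 0 and 2, and DESeq2 gave 0 and 0. Across all features, 0.514% passed for CBD against control, 0.514% for CBD against THC, and 0 of 1363 in each of the other 6 comparisons. For mir-143, CBD had 0, 0 and 0 reads and THC 2, 2 and 3 reads, all at or below the floor of 3 reads. With 7 of its 16 reads in THC, mir-143 reached the 10 reads of the filter only through that group, so its comparisons with THC are given as reads and not read as evidence of a difference. In that comparison the unadjusted p was 0.05 or less for 16.2% of all features. The share was 9.17% for CBD and 3.37% for THC against control, 3.23% for CBD+LPS and 2.35% for THC+LPS against LPS, 2.64% for CBD+LPS against THC+LPS, and 4.77% and 3.74% for the interactions of CBD and THC.

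The largest of the tested differences of miR-143-3p was 0.35 on the log2 scale (standard error 0.56), for the interaction of THC with LPS. It differed from control by 0.12 with CBD (standard error 0.40, adjusted p = 0.993, limma) and by -0.09 with THC (adjusted p = 0.9899, limma). Between CBD+LPS and LPS the difference was 0.07 and between THC+LPS and LPS 0.26, with adjusted p-values of 0.99996 and 0.9998 from limma. CBD and THC, used at the same dose and for the same time, differed from each other by 0.21 in resting cells (standard error 0.40, adjusted p = 0.873, limma) and by -0.19 in LPS-activated cells. These errors leave room for differences in either direction, and they do not show that the compounds act alike on miR-143-3p.

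Among the 659 features outside the group with at least 100 reads, those whose log2 levels over the 18 samples were most like those of miR-145a-3p were miR-21a-5p (Pearson's r 0.96), miR-20a-3p (0.94), miR-21a-3p (0.92), miR-155-5p (0.92) and the hairpin mir-21a (0.91). The median r of the 659 features was 0.02. miR-21 and miR-155 are miRNAs known to be induced by Toll-like receptor signalling, and miR-20a-3p comes from the miR-17 to miR-92a cluster. The samples fall into those with and those without LPS, and the r reflects this separation in part. Within the 9 samples without LPS, r was 0.88 for miR-21a-5p, 0.98 for miR-20a-3p, 0.75 for miR-21a-3p, 0.40 for miR-155-5p and 0.55 for mir-21a. Within the 9 with LPS it was 0.60, 0.34, -0.05, 0.66 and -0.00 in the same order. Among the samples without LPS, THC sample 25 was the lowest for miR-145a-3p and for all of these features except miR-155-5p. The r without LPS may thus depend in part on this single sample, and r without it was not computed. The features share libraries and scaling factors, and these values are given as a description. For miR-143-3p the r with miR-145a-3p was -0.07. The mature sequences of the 4 mature miRNAs among them are shown from RefSeq (GRCm38.p6), so that their seeds, bases 2 to 8 in capitals, can be compared. They come from chromosomes 11 (miR-21a), 14 (miR-20a) and 16 (miR-155), and no seed is shared among them. The sequence of miR-145a-3p was not in the sources used here, so its seed was not compared with theirs.
miR-21a-5p: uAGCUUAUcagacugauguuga
miR-20a-3p: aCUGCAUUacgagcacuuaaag
miR-21a-3p: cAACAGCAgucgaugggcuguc
miR-155-5p: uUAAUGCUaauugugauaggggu

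Of these 5 features, miR-20a-3p and miR-21a-5p were the nearest to miR-145a-3p in the size of the change. miR-20a-3p stood at 193 ± 4.996 CPM in control and at 415 ± 21.6 CPM with LPS (SD, n = 3). miR-21a-5p stood at 20179 ± 1407 CPM in control and at 42481 ± 1715 CPM with LPS, a log2 difference of 1.08. Averaged over the 3 settings with and without cannabinoid, the log2 difference with LPS was 0.80 for miR-145a-3p, 0.80 for miR-20a-3p and 0.83 for miR-21a-5p. A wider list of miRNAs known from LPS responses (miR-155, miR-146a, miR-146b, miR-21a, miR-221, miR-222, miR-132, miR-212, miR-147, miR-9, miR-187, miR-125a, miR-125b, miR-223, miR-181a and let-7e, arms and hairpins) gave 51 tested features. A call needed a p of 0.005 or less and a change of 1.5-fold or more (limma). Of the 51 features, 11 were higher and 0 lower with LPS than in control. Over all 1363 tested features, those of the list included, 19 (1.39%) were higher and 2 (0.147%) lower. All 11 were rows of miR-155, miR-146a, miR-21a, miR-221 or miR-222, and no row of the other listed miRNAs was called. The list was drawn up with earlier results of these data known, so these shares are a description and no independent support. The median log2 difference of the list was 0.24, beside 0.11 for all features.

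Markers of cells in which miR-143 and miR-145 are usually abundant were also measured. All 10 listed rows of smooth muscle and mesenchymal miRNAs (miR-199a, miR-199b and miR-214) had reads, and their summed level was 533.8 to 657 CPM in control and 580.6 to 837 CPM with LPS. In the other groups the sums lay between 479 and 824 CPM. Nearly all of it came from miR-199a and miR-199b, with miR-199a-5p at 138 to 245 CPM, while miR-214-3p had 12 reads in all samples. How reads with several mappings were counted is not given, so a read may enter the sum of these related rows more than once. The summed level of the 8 rows of the muscle miRNAs miR-1a, miR-133a and miR-206 was 2.13 to 10.5 CPM in control and 6.18 to 10.5 CPM with LPS. For the endothelial miR-126, 3 rows summed to between 377 and 908.8 CPM. The ranges of these 3 sums overlapped between control and LPS. The sum of the 11 listed myeloid rows, which include miR-146a, did not, with 16067 to 20448 CPM in control and 24481 to 28386 CPM with LPS. With CBD (17618 to 20261 CPM) and CBD+LPS (19897 to 24787 CPM) the myeloid sums overlapped. The lowest THC+LPS sample, at 22892 CPM, lay just above the highest THC sample, at 22796 CPM. The myeloid rows with the most reads were miR-142-5p and miR-146a-5p, and miR-146a-5p itself was higher with LPS (log2 difference 0.91). Over all tested features, 5.58% had every LPS sample above every control sample and 5.06% every THC+LPS sample above every THC sample. These are shares of single features and not of sums of rows. No listed marker of these cell types was at 0 over all samples, and the part of any of these cells in the level of miR-145a-3p was not tested. In such bulk samples, a change in the number of cells of a type and a change in the RNA per cell cannot be told apart.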

How the data were processed

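Small RNA libraries of 18 samples were sequenced by the authors, who aligned the reads with BWA to the mouse sequences of miRBase, allowing up to 10 mappings per read, and counted reads of known miRNAs. The version of BWA and the miRBase release used for the alignment are not given in the sources used here. The signal values they deposited are CPM (counts per 1000000 reads) on TMM-adjusted library sizes. Dividing each sample's values by its lowest non-zero value gave whole reads, within 0.001 of a read for 100% of the values. edgeR is the tool the authors used for the scaling.

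Groups came from the sample titles. Values were tested as log2(CPM + 1) with limma 3.58.1 (mean-variance trend, 2-sided, R 4.3.3) in a single model of the 6 groups for the 1363 features that reached 10 reads summed over the samples, and p-values were adjusted by the Benjamini-Hochberg method. At an adjusted p of at most 0.1, limma called 14 features for LPS against control, the quasi-likelihood fit of edgeR 4.0.16 to the recovered counts 12 and DESeq2 1.42.0 16. On simulated reads for LPS against control, with 200 of 1363 features changed 4-fold, limma recovered 65.5%, and 98.8% of those averaging at least 10 reads, while 13.2% of its calls were unchanged features. The simulated reads had the same spread for every feature and no difference between runs of sample numbers. Smaller changes were not simulated, so these rates do not apply to them.

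The named features were the members, the 5 features with the highest Pearson correlation with miR-145a-3p, and lists of LPS-linked and cell type miRNAs. The members and lists were chosen with earlier results of these data known. A correlation with miR-145a-5p and the change of the arm ratio, both planned, could not be had from 3 reads. The alternatives were other scalings, pseudocounts, filters, tools, sample subsets and each sample left out. Intervals and floors cover counting error only.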

Additional observations from a re-analysis of the deposited data

How the results depend on the processing

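The log2 difference of miR-145a-3p between LPS and control, 0.85, lay between 0.64 and 0.90 in 11 alternatives and between 0.83 and 0.88 with each sample left out. Scaling to miR-103-3p and miR-191-5p moved it most, to 0.64, and moved the difference between THC+LPS and THC from 0.99 to 0.64. The same scaling changed the median of all features for LPS against control from 0.11 to -0.05, and for THC+LPS against THC from -0.04 to -0.35. For THC+LPS against THC, leaving out each sample gave 0.78 to 1.11, and for CBD+LPS against CBD 0.46 to 0.71. The log2 difference of miR-143-3p between LPS and control was -0.40 to -0.19 in its alternatives and -0.50 to 0.06 with each sample left out, and the difference between its response and that of miR-145a-3p was 1.04 to 1.19 and 0.77 to 1.35. The counts of cannabinoid effects and interactions stayed at 0 in the alternatives run, other than 1 without control sample 22 (left-out range 0 to 1), for mir-143 between CBD and THC, which is void because mir-143 passed the filter only through its THC reads. The filter filterByExpr left no row of mir-143 to test. DESeq2 for miR-145a-3p and all alternatives for miR-143-3p, mir-145b and the comparisons within a cannabinoid were added after the data were seen. No value under any setting is given for the LPS response of miR-145a-5p, mir-145a or mir-143, or for differences from them, because the groups were at or under 3 reads per sample. No replicate number is shared between groups. A replicate block of the 3 runs of consecutive sample numbers, each holding every group once and added after the data were seen, left the log2 difference of miR-145a-3p at 0.85 with a standard error of 0.14 in place of 0.19, and changed no count of calls. The share of 5p reads of miR-145a was 0.0149% in samples 28 to 39.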

Other observations

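How low THC sample 25 and CBD+LPS sample 26 lay depended on the scaling. miR-145a-3p stood at 680.2 in sample 25 and 1295 in sample 26 with the deposited scaling. The values were 738 and 1417 with edgeR's relative log expression (RLE) factors, and 874 and 1484 with library size alone. Scaled to miR-103-3p and miR-191-5p, they were 1037 and 1701. CBD+LPS sample 26 was the lowest sample with LPS under every scaling but this last, under which CBD+LPS sample 38 was the lowest. Of the 18 samples, samples 25 and 26 had the lowest ratios of library size to TMM-adjusted library size, 0.778 and 0.872.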
